A study of Mus musculus with 12 samples.

Results

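Trav6d-3, Trav6d-4, Trav6d-5, Trav6d-6 and Trav6d-7 are variable segments of the mouse T cell receptor alpha locus, Tcra, and belong to the Trav6 family. The suffix D marks segments of the distal part of the locus, which a duplication of the Trav cluster gave a like-numbered copy nearer to the Traj segments. They were chosen by name, as every row of the deposited repertoire tables called TRAV6D with a number, taken with all 43 Traj partners. There were 5 such rows among the 85 Trav rows listed in any table, and all 5 were among the 79 rows listed in every table. The rule uses names only, but it was set with earlier results of these data known.

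Double-positive (DP) thymocytes, which carry both CD4 and CD8, make a Tcra chain by joining a Trav segment to a Traj segment through the RAG recombinase. The first joins mostly use Traj segments at the 5′ end of their array, which carry the high numbers, together with Trav segments that lie close by. A later join on the same chromosome deletes the earlier one and uses a Trav segment further upstream and a Traj segment further downstream, with a lower number. Distal segments such as those of the Trav6d group are therefore known chiefly from later rounds of rearrangement, and the Traj partner of a segment records how far the array had been used up.

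The study compared this repertoire between wild-type (WT) mice and mice homozygous for DPASEKO (KO), in a series on the control of RAG genes by RORγt. Mice of both genotypes were 4 to 6 weeks old, of C57BL/6J background, with TcrdCreER from strain 129 at the Tcra-Tcrd loci and a ZsG reporter at Rosa26. TcrdCreER is a Cre recombinase that tamoxifen switches on and that sits in the Tcrd locus, the locus nested within Tcra. CD3e-negative DP thymocytes were sorted at steady state without tamoxifen, or as ZsGreen+ cells 24 h or 48 h after 1 mg of tamoxifen given intraperitoneally. Total RNA was converted to Tcra libraries by template-switch RACE with a Trac primer. There were 6 groups of 2 libraries, 12 in all. The design text speaks of 2 mice per group, and the labels do not tie each library to a mouse, so p-values reflect library-to-library spread, and that spread may be technical. Neither DPASE nor the RAG genes are rows of these tables, so the genotype labels were not checked here.

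Each table holds fractions of the repertoire, and the share of a segment here is its value divided by the table's own total, in percent. Depth in reads is unknown, because no count is given. For 8 tables this total lay between 0.995 and 0.998, with a smallest share above 0 of 0.000336% to 0.000853%. The other 4 tables, replicate 2 of WT and KO at 24 h and at 48 h, summed to between 1.97 and 1.99, and their smallest share was 0.00401% to 0.00937%. Of the 215 pairs of a Trav6d segment with a Traj segment, 0 to 40 were at 0 in the 8 tables and 127 to 160 in the 4. The 4 libraries also held more rows that can join Tcrd, those with DV in the name (23.6% to 33.2% of the repertoire against 11.0% to 16.4%). The pair TRAV11 with TRAJ18, which marks invariant NKT cells, stayed at or under 0.0462% in all 12 libraries, and TRAV1 with TRAJ33, which marks MAIT cells, at or under 0.0503%. The part of these differences in the results on Trav6d was not tested, and tests that rest on the 4 libraries are given with and without them.

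In the GENCODE M21 annotation of the C57BL/6J genome, build GRCm38, the 5 segments lie on the plus strand of chromosome 14 in the order of their numbers, each a TR_V_gene whose longest transcript has 2 exons. Trav6d-3 (ENSMUSG00000096600.5) spans chr14:52725299-52726919 and Trav6d-4 (ENSMUSG00000095387.5) chr14:52753367-52753846. Trav6d-5 (ENSMUSG00000095426.6) spans chr14:52795165-52795633 and Trav6d-6 (ENSMUSG00000094176.6) chr14:52821922-52822359. Trav6d-7 (ENSMUSG00000095756.2) stands apart at chr14:53007612-53008098. The starts of the first 4 follow each other at 28.1, 41.8 and 26.8 kb, while Trav6d-7 starts 186 kb after Trav6d-6. Each has a like-numbered copy, Trav6-3 to Trav6-6 and Trav6-7-dv9, that starts 695 to 703 kb further downstream. Which build the deposited tables rest on is not stated in any source used here. The mice carry 129 material at this locus, so the annotated positions and sequences describe the reference strain.

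Some of the copies can hardly be told apart by sequence, which limits what a row of the tables can mean. Over the last 289 bases of the annotated transcripts, Trav6d-6 and Trav6-6 had 0 differences, Trav6d-3 and Trav6-3 had 1, Trav6d-7 and Trav6-7-dv9 had 6, Trav6d-4 and Trav6-4 had 7, and Trav6d-5 and Trav6-5 had 13. The 1 difference of the Trav6-3 pair is T287A, counted from 1 at the 5′ end of those 289 bases, with the base of Trav6d-3 first. It is the third base from the 3′ end of the annotated segment, and joining to Traj commonly trims such ends. The last 60 bases of the closest pairs, and of the pair with the most differences, are shown 5′ to 3′ from the GENCODE M21 transcripts, with capitals at the bases that differ within a pair:
Trav6d-3: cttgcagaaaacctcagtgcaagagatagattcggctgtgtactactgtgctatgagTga
Trav6-3: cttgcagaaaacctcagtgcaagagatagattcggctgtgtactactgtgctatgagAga
Trav6d-5: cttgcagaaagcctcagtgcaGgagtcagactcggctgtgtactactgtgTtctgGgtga
Trav6-5: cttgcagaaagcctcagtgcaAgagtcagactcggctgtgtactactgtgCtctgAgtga
Trav6d-6: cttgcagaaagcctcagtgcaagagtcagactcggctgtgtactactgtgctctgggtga
Trav6-6: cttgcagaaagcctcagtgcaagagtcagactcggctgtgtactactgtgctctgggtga
Trav6d-7: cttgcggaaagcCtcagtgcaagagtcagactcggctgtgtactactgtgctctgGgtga
Trav6-7-dv9: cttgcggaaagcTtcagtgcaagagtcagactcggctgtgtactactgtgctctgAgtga
The annotation also holds Trav6n-5, Trav6n-6 and Trav6n-7, and Trav6d-7 had 0 differences from Trav6n-7 over 358 transcript bases. No row with the suffix N was listed in the tables. Nor is it stated in the sources used here how the tables divide transcripts between identical segments. Among themselves the 5 segments were less alike, from 64.4% identity between Trav6d-6 and Trav6d-7 to 88.2% between Trav6d-3 and Trav6d-4 over the same 289 bases.

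At steady state in WT, TRAV6D-6 and TRAV6D-7 were the most used of the 5. TRAV6D-6 took 1.89% and 1.91% of the repertoire in replicates 1 and 2, and TRAV6D-7 took 1.76% and 1.85%. TRAV6D-5 followed with 0.865% and 0.906%, TRAV6D-4 with 0.545% and 0.661%, and TRAV6D-3 with 0.410% and 0.459%. No 2 neighbours in this order overlapped between the 2 libraries. Together the 5 took 5.63% ± 0.222 (SD, n = 2) of the WT steady-state repertoire, beside 35.1% ± 0.378 for all rows with the suffix D and 6.76% ± 0.295 for the 5 Trav6 copies.

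In KO cells at steady state each of the 5 shares was lower in both libraries than in either WT library. TRAV6D-3 took 0.264% and 0.342%, TRAV6D-4 0.396% and 0.544%, and TRAV6D-5 0.647% and 0.662%. TRAV6D-6 took 1.44% and 1.53%, and TRAV6D-7 1.618% and 1.623%. KO means were 0.697 times the WT mean for TRAV6D-3, the lowest ratio, and 0.897 times for TRAV6D-7, the highest. Of all 79 rows, 38.0% had both KO libraries below both WT libraries at steady state, so lower shares were common beyond Trav6d. Together the 5 took 4.54% ± 0.234 of the KO repertoire, 1.09 percentage points less than in WT, and their copies took 7.31% ± 0.158. In bulk RNA, fewer cells with a segment and less transcript per cell cannot be told apart.

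At 24 h each of the 5 shares was lower in both libraries of a genotype than in either of its steady-state libraries. The mean log2 share was lower at 24 h than at steady state for 46 of all 79 rows in WT and 49 in KO. In the fit of all 12 libraries without a replicate block, given below, none of the 5 passed for this comparison. In WT, replicates 1 and 2 held 0.186% and 0.0578% for TRAV6D-3, 0.273% and 0.152% for TRAV6D-4, and 0.594% and 0.181% for TRAV6D-5. TRAV6D-6 stood at 1.35% and 0.243%, and TRAV6D-7 at 0.932% and 0.679%. The second library of each group was among the 4 that stand apart, and it lay far below the first for all but TRAV6D-7. In KO the values were 0.138% and 0.0412% for TRAV6D-3, 0.224% and 0.09999% for TRAV6D-4, and 0.533% and 0.147% for TRAV6D-5. For TRAV6D-6 they were 1.18% and 0.135%, and for TRAV6D-7 0.685% and 0.561%. KO lay below WT within each replicate number, but the 2 genotypes overlapped for all 5 segments, as they did for most rows (7.59% of 79 rows had both KO libraries below both WT libraries).

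At 48 h the first WT library held shares near the steady-state ones, and the second held lower shares. WT held 0.438% and 0.218% for TRAV6D-3, 0.604% and 0.180% for TRAV6D-4, and 0.869% and 0.189% for TRAV6D-5. TRAV6D-6 held 1.82% and 0.359%, and TRAV6D-7 1.97% and 1.05%. The KO libraries held 0.347% and 0.0589% for TRAV6D-3, 0.473% and 0.170% for TRAV6D-4, and 0.583% and 0.154% for TRAV6D-5. TRAV6D-6 was at 1.27% and 0.221% there, and TRAV6D-7 at 1.42% and 0.886%. Again KO lay below WT within each replicate number and the groups overlapped for all 5 segments (6.33% of 79 rows had both KO libraries below both WT libraries).

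**Figure D1:**
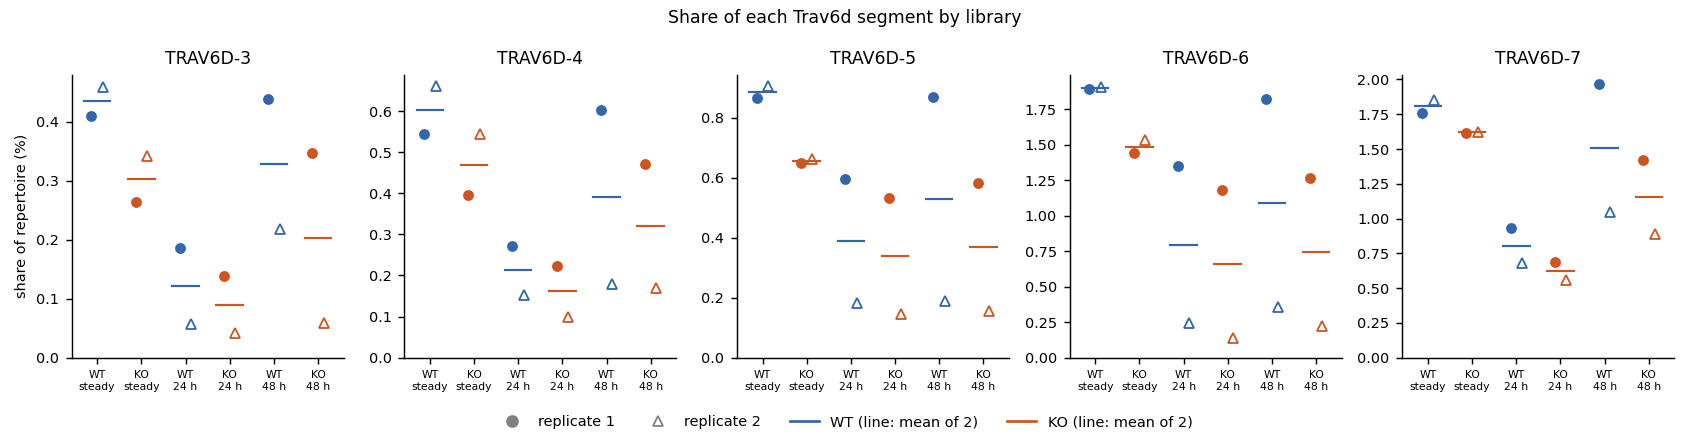
Share of the repertoire (percent, each panel with its own axis from 0) taken by each of the 5 Trav6d segments in the 12 libraries, with circles for replicate 1, triangles for replicate 2 and lines for the mean of 2. The KO libraries at steady state sit below both WT libraries in all 5 panels, while at 24 h and 48 h replicate 2 of each group sits far below replicate 1, least so for TRAV6D-7.

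Over the 3 samplings, KO was lower than WT in 30 of 30 same-numbered comparisons of the 5 segments. The 5 segments come from the same libraries, so these comparisons are not independent. The mean KO-minus-WT difference in log2 share was negative for 26 of the 28 D rows of other families and for 49 of all 79 rows. In limma on log2(percent + 0.01), fitted over all 79 rows with 1 mean per group, no row passed an adjusted p of 0.05 in KO against WT at steady state, 24 h, 48 h or their mean (0.0% called in each), and 0, 0, 1 and 5 rows had an unadjusted p under 0.05, none of them Trav6d. On that scale the mean KO-minus-WT difference was -0.65 (SE 0.50, limma adjusted p = 0.867) for TRAV6D-3 and -0.29 (SE 0.23, limma adjusted p = 0.867) for TRAV6D-7, with the other 3 between them. This fit did not pair same-numbered libraries. With the replicate number as a block, the limma adjusted p of the 5 ran from 0.502 to 0.671, and 0 of the 79 rows passed. The median of the 5 was -0.36, against -0.10 over all rows and -0.25 over the 28 D rows of other families. Without the 4 libraries, 4 of the 5 segments fell in the mean over samplings, as did 30.4% of the 79 rows. TRAV6D-3 then fell by 0.42 (limma adjusted p = 0.0496), TRAV6D-5 by 0.38, TRAV6D-6 by 0.36 and TRAV6D-7 by 0.35 (each limma adjusted p = 0.0259), and TRAV6D-4 had -0.33 (0.119). In that fit the 24 h and 48 h groups hold 1 library each, which is assumed to vary like those of steady state. At steady state alone the 8-library fit called none of the 79 rows, and the adjusted p of the 5 ran from 0.117 to 0.246.

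The time course was tested in the same fits. From 24 h to 48 h no Trav6d segment passed in WT or in KO (1.27% of rows called in each), and none passed between 24 h and steady state (1.27% called in WT, 6.33% in KO). With the replicate number as a block, TRAV6D-7 was higher at steady state than at 24 h by 1.17 (SE 0.31, limma adjusted p = 0.0326) in WT and by 1.37 (SE 0.31, limma adjusted p = 0.0265) in KO, where the fit without the block gave adjusted p-values of 0.110 and 0.0948. With the block 15 of 79 rows (19.0%) rose in this comparison in WT and 15 in KO. Without the 4 libraries, all 5 segments rose from 24 h to 48 h in WT (40.5% of rows rose) and TRAV6D-3, TRAV6D-4 and TRAV6D-7 rose in KO (29.1% rose). The same fit placed all 5 higher at steady state than at 24 h in WT (45.6% of rows higher) and these 3 in KO (39.2% higher). TRAV6D-5 and TRAV6D-6 were the 2 that missed the threshold in KO, at adjusted p-values of 0.0775 and 0.0585 between 24 h and steady state.

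The 5 segments did not move as 1 block across libraries. In the 8 libraries TRAV6D-7 made up 24.8% to 37.0% of the summed Trav6d share and TRAV6D-6 31.0% to 42.7%, and each was the highest of the 5 in 4 libraries. In the 4 libraries TRAV6D-7 made up 51.7% to 59.5% and TRAV6D-6 13.7% to 18.5%. TRAV6D-3 was the lowest of the 5 in 11 of 12 libraries, the exception being WT replicate 2 at 48 h. Correlations of log2 shares over the 12 libraries, which carry the split between the 8 and the 4, ran from 0.788 between TRAV6D-5 and TRAV6D-7 to 0.987 between TRAV6D-5 and TRAV6D-6.

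The Traj partners separated the genotypes more clearly than the shares did. The mean Traj number of a segment is the average number of its Traj partners, weighted by their shares, and a higher number lies closer to the 5′ end of the array. At steady state TRAV6D-3 had a mean Traj number of 24.5 and 23.6 in WT and 32.4 and 31.5 in KO. TRAV6D-4 had 26.9 and 24.1 in WT and 33.8 and 33.1 in KO, and TRAV6D-5 had 28.8 and 27.0 against 36.7 and 35.0. For TRAV6D-6 the values were 28.8 and 27.2 against 35.9 and 34.5, and for TRAV6D-7 26.5 and 25.3 against 31.5 and 30.2. Both KO libraries stood above both WT libraries for all 5 segments, as they did for 97.5% of the 79 rows.

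In limma on the mean Traj number over all 79 rows, the 5 segments rose in KO at steady state (5 of 5 called, beside 48.1% of all rows). Of the 28 D rows of other families, 20 rose. TRAV6D-4 rose by 7.97 (SE 1.24, limma adjusted p = 0.00141), TRAV6D-5 by 7.97 (SE 1.84, 0.00677) and TRAV6D-3 by 7.87 (SE 2.39, 0.0215). TRAV6D-6 rose by 7.20 (SE 1.83, limma adjusted p = 0.00965) and TRAV6D-7 by 4.97 (SE 1.65, 0.0315). The median difference was 7.87 for the 5, 6.14 for the D rows of other families and 4.87 over all rows. TRAV6D-7 ranked 38 of 79 where TRAV6D-4 ranked 3. These calls depend on the libraries: without KO steady-state replicate 1 or without WT steady-state replicate 2 only TRAV6D-4 passed of the 5 and 11 passed of the 79 rows. Without KO replicate 2 or WT replicate 1 of that sampling TRAV6D-3 and TRAV6D-7 did not pass, and 28 and 27 of the 79 rows did. The segments that missed the threshold had differences of 4.30 to 8.32. These refits do not pair same-numbered libraries. Within replicates 1 and 2 the steady-state differences were 7.88 and 7.87 for TRAV6D-3, 6.955 and 8.98 for TRAV6D-4, and 7.92 and 8.01 for TRAV6D-5. They were 7.15 and 7.25 for TRAV6D-6 and 5.02 and 4.91 for TRAV6D-7.

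At 24 h both genotypes had their highest mean Traj numbers. TRAV6D-3 had a mean Traj number of 38.9 and 33.8 in WT and 43.3 and 51.2 in KO. TRAV6D-4 had 41.3 and 40.8 in WT and 45.7 and 46.4 in KO. TRAV6D-5 had 43.4 and 44.3 in WT and 47.4 and 43.3 in KO, where the second KO library lay below both of WT. TRAV6D-6 had 43.8 and 43.9 against 48.0 and 45.4, and TRAV6D-7 had 38.4 and 41.9 against 42.4 and 46.1. Both KO libraries stood above both of WT for 4 of the 5 segments, beside 86.1% of all rows.

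Of the 5, TRAV6D-3 and TRAV6D-4 rose in KO at 24 h (46.8% of rows called), by 10.9 (SE 2.39) and 5.01 (SE 1.24), each with a limma adjusted p of 0.0118. Of the 28 D rows of other families, 15 rose. TRAV6D-7 had a difference of 4.13 (limma adjusted p = 0.0574), TRAV6D-6 of 2.83 (0.180) and TRAV6D-5 of 1.53 (0.443). The value of TRAV6D-3 rests on few joins in the second KO library, where only 3 of its 43 Traj partners were above 0. Without that library its difference was 6.92 and 0 of the 79 rows passed, and without WT 24 h replicate 1 only TRAV6D-3 passed of the 5 and 2 of the 79. Without the 4 libraries all 5 segments rose, by 3.99 to 4.45 (75.9% of rows called).

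At 48 h the gap between genotypes was wide again. TRAV6D-3 had a mean Traj number of 28.4 and 27.4 in WT and 37.5 and 40.2 in KO, and TRAV6D-4 had 29.2 and 28.2 in WT and 39.2 and 37.2 in KO. TRAV6D-5 had 29.7 and 34.1 against 39.8 and 42.7. TRAV6D-6 had 29.9 and 35.1 against 40.0 and 36.5, and TRAV6D-7 had 27.4 and 30.4 against 35.1 and 35.5. The genotypes did not overlap for any of the 5, nor for 83.5% of all rows in this direction.

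All 5 rose in KO at 48 h (69.6% of rows called), as did 24 of the 28 D rows of other families. The differences were 10.9 (SE 2.39, limma adjusted p = 0.00323) for TRAV6D-3, 9.45 (SE 1.24, 0.000362) for TRAV6D-4 and 9.37 (SE 1.84, 0.00199) for TRAV6D-5. TRAV6D-6 rose by 5.72 (SE 1.83, limma adjusted p = 0.0197) and TRAV6D-7 by 6.41 (SE 1.65, 0.00731). Without KO 48 h replicate 1, TRAV6D-6 had 3.95 and no longer passed, and without WT 48 h replicate 1 TRAV6D-6 had 3.12 and TRAV6D-7 4.92 and neither passed. All 5 also rose without the 4 libraries (82.3% of rows rose), TRAV6D-6 by 10.1 and TRAV6D-7 by 7.73, the smallest of the 5.

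Averaged over the 3 samplings, the mean Traj number rose in KO for 5 of 5 segments, beside 93.7% of all rows. TRAV6D-3 had a difference of 9.89 (SE 1.38, limma adjusted p = 0.000129), the largest of the 79 rows in this fit. TRAV6D-4 followed with 7.48 (SE 0.72, 2.87e-05) and TRAV6D-5 with 6.29 (SE 1.07, 0.000368). TRAV6D-6 had 5.25 (SE 1.06, limma adjusted p = 0.000995) and TRAV6D-7 5.17 (SE 0.95, 0.000626). The median was 6.29 for the 5 and 4.71 over all rows, beside 6.25 for the D rows of other families and 4.56 for Trav6 rows without D. KO was above WT in 29 of 30 same-numbered comparisons, which are not independent, the exception being TRAV6D-5 in replicate 2 at 24 h. The mean difference was positive for 79 of all 79 rows. In the fit without the 4 libraries all 5 rose, by 5.56 to 7.44 (96.2% of rows rose). The difference of TRAV6D-3 was then 7.09 and ranked 12 of 79, behind TRAV6D-4, TRAV6D-5 and TRAV6D-6, and the largest was 9.09 for TRAV11D.

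**Figure D2:**
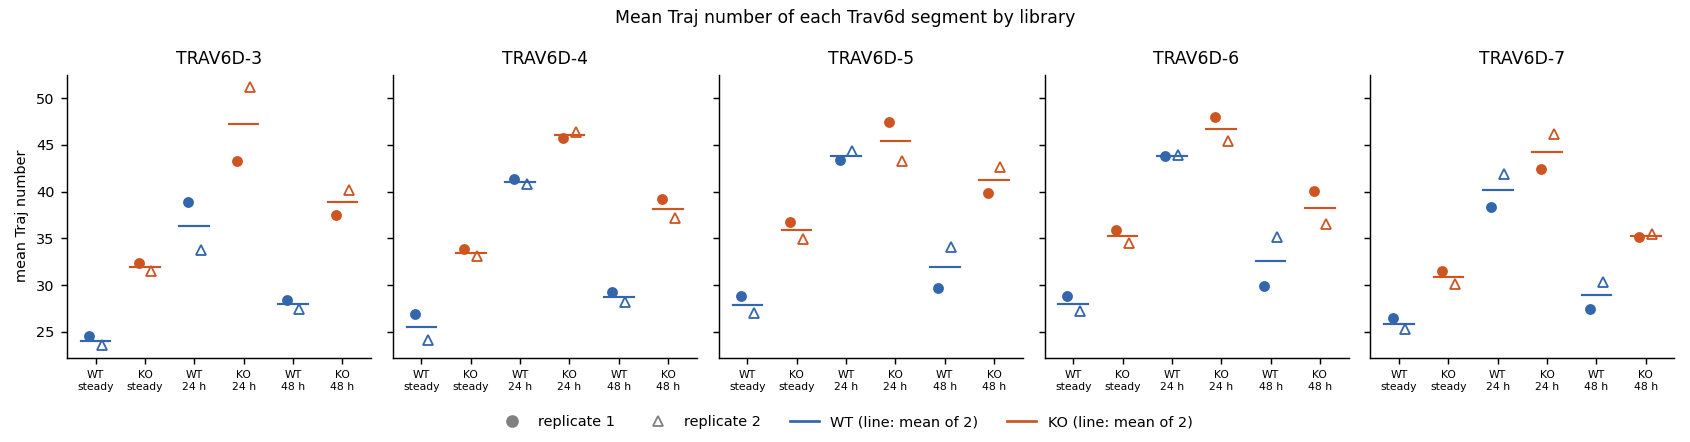
Mean Traj number (axis from about 22, a higher number closer to the 5′ end of the Traj array) of each Trav6d segment in the 12 libraries, with circles for replicate 1, triangles for replicate 2 and lines for the mean of 2. KO points lie above WT points at every sampling except for TRAV6D-5 at 24 h, and both genotypes are highest at 24 h and lowest at steady state.

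Both genotypes moved toward the 3′ end of the Traj array after 24 h. In WT the mean Traj number fell from 24 h to 48 h for 5 of 5 segments, with changes from -8.42 for TRAV6D-3 to -12.3 for TRAV6D-4 (91.1% of rows called). Without WT 24 h replicate 1, TRAV6D-3 had -5.84 and no longer passed. In KO it fell for 4 of 5, with TRAV6D-5 at -4.12 (limma adjusted p = 0.0562) against -7.90 to -8.97 for the others (82.3% of rows called). TRAV6D-3 had -4.42 there without KO 24 h replicate 2 and no longer passed, while TRAV6D-5 had -6.18 and did. All 5 fell without the 4 libraries in both genotypes, with changes from -10.5 to -13.9 in WT (87.3% of rows fell) and from -5.78 to -7.93 in KO (91.1% fell), where TRAV6D-5 had -7.60. All 5 were lower at steady state than at 24 h, with differences from -12.3 to -16.0 in WT (89.9% of rows called) and from -9.52 to -15.3 in KO (94.9% called). These ran, without the 4 libraries, from -12.5 to -15.8 in WT (89.9% of rows fell) and from -11.3 to -12.8 in KO (96.2% fell). The change from 24 h to 48 h was not found to differ between genotypes for any of the 5 (2.53% of rows called). The KO-minus-WT difference in this change was positive for all 5, from 0.051 to 7.84, as it was for 49 of the 79 rows. Without the 4 libraries it ran from 3.73 to 6.10, and 57 of the 79 rows were positive. An equal change in both genotypes is therefore not shown.

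The Traj array was divided into a 5′ window of 13 Traj (Traj58 to Traj42), a middle window of 16 (Traj40 to Traj22) and a 3′ window of 14 (Traj21 to Traj2). Summed over the 5 segments, joins to the 3′ window at steady state made up 2.41% of all joins in WT cells and 1.16% in KO cells. Joins to the 5′ window took 1.30% and 1.62%, and joins to the middle window 1.92% and 1.76%. The KO mean was lower than the WT mean at 14 of 14 Traj of the 3′ window and higher at 13 of 13 of the 5′ window. Over all 79 rows summed, the same Traj were lower (14 of 14) and higher (13 of 13), the 3′ window taking 30.5% in WT and 18.4% in KO and the 5′ window 29.9% and 40.4%. The KO share of the 3′ window was 0.479 times that of WT for Trav6d and 0.603 times for all rows, a difference that was not tested.

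**Figure D3:**
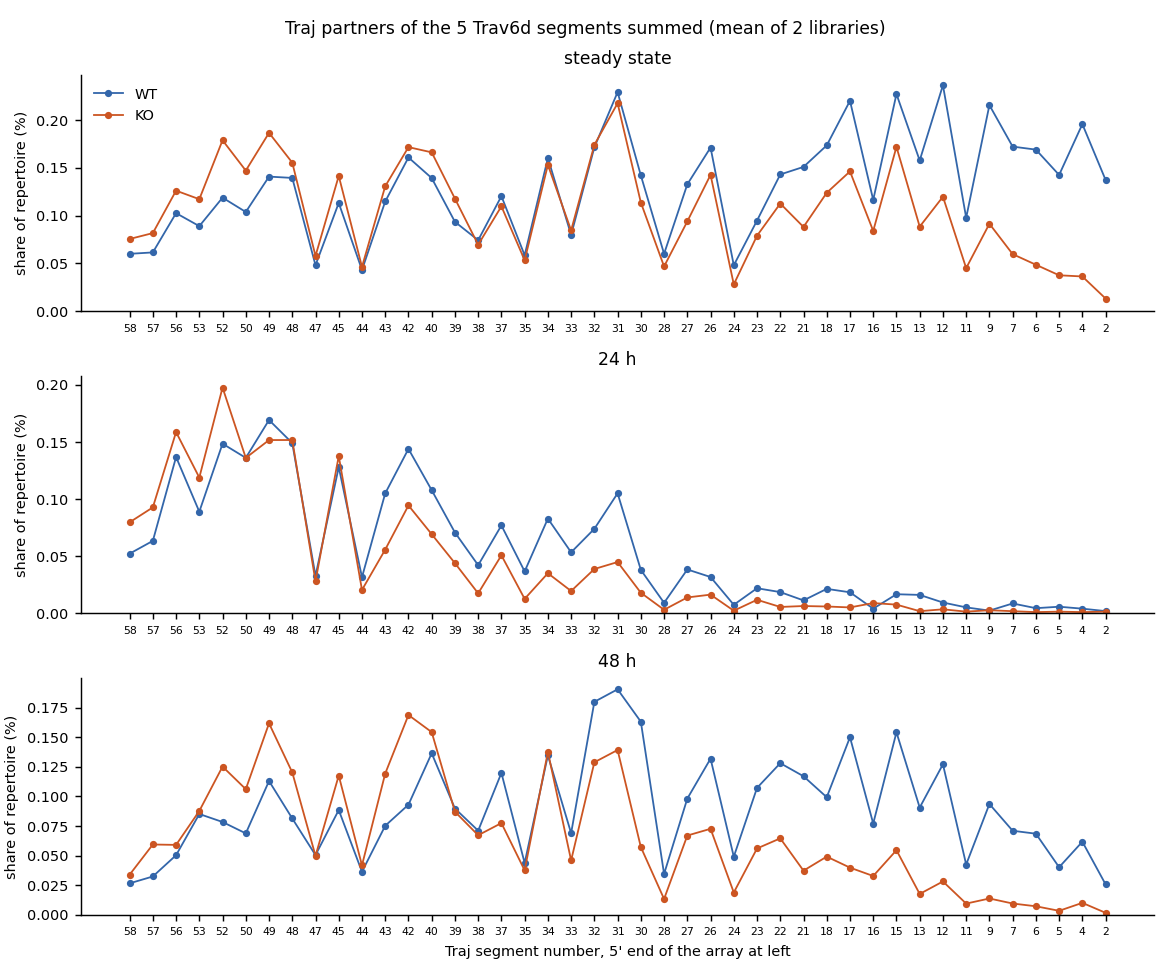
Share of the repertoire (percent, mean of 2 libraries) taken by the 5 Trav6d segments summed, by Traj partner from Traj58 at the left (5′ end) to Traj2 at the right, at steady state, 24 h and 48 h, each panel with its own axis from 0. The KO line lies under the WT line over all 14 Traj of the 3′ window at steady state and at 48 h, and few joins reach that window at 24 h.

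At 48 h the KO share of the 3′ window was 0.258 times that of WT for Trav6d and 0.441 times for all rows, both lower than at steady state, and at 24 h few joins of either genotype reached that window. At 48 h the 3′ window took 1.22% in WT and 0.315% in KO, again lower at 14 of 14 Traj as over all rows, and the 5′ window took 0.880% and 1.25%. At 24 h the 5′ window took 1.39% and 1.42%, the middle window 0.813% and 0.400%, and the 3′ window only 0.127% and 0.0473%. In replicate 1 alone the 3′ window took 1.96% in WT and 0.460% in KO at 48 h, 0.234 times (0.396 times for all rows), and 0.196% and 0.0829% at 24 h, 0.422 times (0.501 times for all rows). Among the 24 h Traj partners the largest sums were at TRAJ49 in WT (0.169%) and at TRAJ52 in KO (0.198%). At steady state the largest sum was at TRAJ12 in WT (0.236% against 0.120% in KO) and at TRAJ31 in KO (0.218% against 0.229% in WT). At the 3′ end the ratio was smallest, and TRAJ2, the last Traj listed, made up 2.44% of Trav6d joins in steady-state WT cells and 0.293% in KO.

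For each segment the 3′ window held a smaller part of the joins in KO. In WT at steady state 49.2% ± 1.30 (SD, n = 2) of TRAV6D-3 joins lay in the 3′ window, against 27.2% ± 0.645 in KO. For TRAV6D-4 the values were 47.1% ± 4.88 and 25.2% ± 1.67, and for TRAV6D-5 42.0% ± 3.58 and 22.2% ± 2.75. TRAV6D-6 had 41.7% ± 2.36 and 24.3% ± 1.74, and TRAV6D-7 41.3% ± 2.91 and 27.5% ± 2.64. TRAV6D-7 had the smallest part of its own joins in the 5′ window in both genotypes, 16.8% ± 1.66 in WT and 25.0% ± 1.93 in KO. TRAV6D-6 had 28.0% ± 2.61 and 43.3% ± 3.31 there, and all 79 rows summed had 30.8% ± 2.17 and 41.3% ± 3.10. In the 4 most 5′ Traj, Traj58 to Traj53, the part of the array under the TEA promoter, TRAV6D-6 had 9.45% ± 1.07 in WT and 15.4% ± 1.93 in KO, and TRAV6D-5 had 7.70% ± 0.591 and 12.6% ± 0.165. The other 3 were lower there, TRAV6D-7 with 2.62% ± 0.147 and 3.60% ± 0.814, TRAV6D-4 with 2.49% ± 0.859 and 5.44% ± 0.698, and TRAV6D-3 with 0.923% ± 0.318 and 1.95% ± 0.668. All 79 rows summed had 9.26% ± 1.06 and 12.5% ± 1.43.

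The partner with the largest share depended on sampling and genotype as well as on the segment. Averaged over the 12 libraries, whose samplings differ in their Traj use, TRAV6D-5 and TRAV6D-6 shared the 3 largest, TRAJ52, TRAJ49 and TRAJ56, all in the 5′ window, at 0.0295%, 0.0291% and 0.0253% of the repertoire for TRAV6D-5 and 0.0560%, 0.0554% and 0.0511% for TRAV6D-6. TRAV6D-3 was joined most to TRAJ42 (0.0125%), TRAJ40 (0.0112%) and TRAJ48 (0.0111%), and TRAV6D-4 to TRAJ49 (0.0178%), TRAJ48 (0.0175%) and TRAJ42 (0.0165%). TRAV6D-7 was joined most to partners of the middle window, TRAJ31 (0.0642%), TRAJ40 (0.0581%) and TRAJ32 (0.0580%). By genotype at steady state, the top partner of TRAV6D-3, TRAV6D-4 and TRAV6D-5 was TRAJ12 in WT and TRAJ40, TRAJ49 and TRAJ52 in KO. For TRAV6D-6 it was TRAJ17 in WT and TRAJ49 in KO, and for TRAV6D-7 it was TRAJ31 in both. TRAJ12 was first in WT for 3 segments without being among the 3 largest of their averages over all libraries. The ranking rests on small values, and of the 3 TRAV6D-3 pairs 2, 3 and 2 libraries were at 0.

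Tested pair by pair over all 3397 pairs of a Trav and a Traj, 3 pairs of Trav6d passed in the mean KO-minus-WT difference over samplings (1.09% of all pairs called), and all 3 fell. None passed at steady state (0.294% of all pairs called), at 24 h or at 48 h (0.0% each). At steady state TRAV6D-6 with TRAJ4 took 0.0557% and 0.0715% in WT and 0.0107% and 0.0154% in KO, and 0.0291% and 0.0189% against 0.00170% and 0 at 48 h. At 24 h it took 0.00341% and 0 in WT and 0.000821% and 0 in KO. Its mean difference was -1.15 on the log2(percent + 0.01) scale (SE 0.15, limma adjusted p = 0.0230), which understates the change of values this low.

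The steady-state share of TRAV6D-3 with TRAJ12 was 0.0192% and 0.0286% in WT and 0.00961% and 0.00840% in KO. At 24 h it took 0.00171% and 0.00422% in WT and was listed at 0 in both KO libraries, and at 48 h it took 0.0183% and 0.0284% in WT and 0.00256% and 0 in KO. Its mean difference was -0.92 (SE 0.15, limma adjusted p = 0.0395). TRAV6D-3 with TRAJ5 took 0.0157% and 0.0164% in WT and 0.00392% and 0.00336% in steady-state KO cells, and 0.00794% and 0.00952% in WT and 0 in both KO libraries at 48 h. At 24 h it was above 0 only in WT replicate 1, at 0.000853%. Its mean difference was -0.63 (SE 0.11, limma adjusted p = 0.0465), and with the replicate block the adjusted p was 0.0555. WT and KO values did not overlap for any of the 3 pairs at steady state or at 48 h. The pairs were chosen by their difference in these same libraries, so this adds no support.

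Without the 4 libraries, 40 pairs of Trav6d were called at steady state (10.8% of all pairs), 64 at 48 h (20%) and 114 in the mean (36.7%). In the fit with all libraries, 69 of 70 pairs of Trav6d with the 3′ window were lower in KO in the mean over samplings (median -0.52, against -0.38 over all Trav rows). In the middle window 66 of 80 were lower (median -0.27 against -0.12), and in the 5′ window 48 of 65 were higher (median 0.11 against 0.23). These medians placed the pairs of Trav6d below the median of all rows in each window. Leaving out single libraries left each of the 3 called pairs past the threshold in only 3 of 12 refits.

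The copies nearer to the Traj array were compared with the distal segments within each library. TRAV6D-3 was 3.26 to 6.47 times as frequent as TRAV6-3 in the 8 libraries, but 0.314 to 0.877 times in the 4. TRAV6D-5 was less frequent than TRAV6-5 in 12 of 12 libraries, at 0.276 to 0.491 times its share, and TRAV6D-6 less than TRAV6-6 in 11 of 12. TRAV6D-4 was at 0.625 to 0.966 times TRAV6-4 in the 8 libraries and at 0.372 to 1.15 times in the 4. TRAV6D-7 ran from 0.221 times TRAV6-7/DV9, in KO replicate 1 at 24 h, to 1.45 times in the 8 libraries, and from 0.454 to 1.82 times in the 4.

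At steady state the distal segment's part of each pair was lower in both KO libraries than in both WT libraries, for all 5 pairs, beside 75.8% of the 33 D rows that have a copy. The means were 82.7% in WT and 77.2% in KO for TRAV6D-3 with TRAV6-3, 47.0% and 40.6% for TRAV6D-4 with TRAV6-4, and 31.4% and 25.5% for TRAV6D-5 with TRAV6-5. For TRAV6D-6 with TRAV6-6 they were 42.1% and 34.8%, and for TRAV6D-7 with TRAV6-7/DV9 55.8% and 47.1%. This division was not tested.

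**Figure D4:**
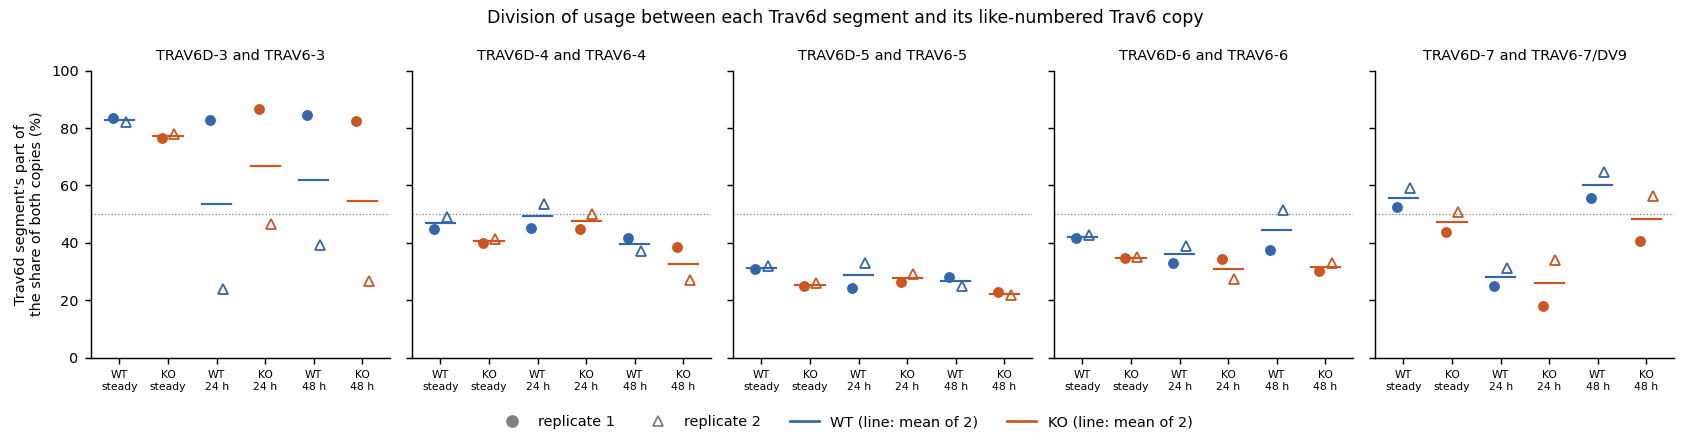
Part (percent) taken by the Trav6d segment of the share of both copies, for the 5 pairs in the 12 libraries, with circles for replicate 1, triangles for replicate 2, lines for the mean of 2 and a dotted line at equal shares. At steady state WT lies above KO in all 5 pairs, and for TRAV6D-3 the second libraries of both genotypes at 24 h and 48 h drop from above 80% to between 23.9% and 46.7%.

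The gap in mean Traj number between a segment and its copy grew in size from TRAV6D-3 to TRAV6D-7 in WT at steady state. In WT at steady state the mean Traj number of the distal segment minus that of its copy was 0.64 ± 0.87 (SD, n = 2) for TRAV6D-3, -1.06 ± 0.83 for TRAV6D-4, -3.33 ± 0.67 for TRAV6D-5 and -4.40 ± 0.65 for TRAV6D-6. For TRAV6D-7 it was -14.3 ± 1.69 against TRAV6-7/DV9, a proximal segment whose mean Traj number was 39.6 and 40.8 in the WT libraries. In KO at steady state it was -11.5 ± 0.87, and over all samplings TRAV6D-7 was the lower of the pair in 12 of 12 libraries, with differences from -1.64 to -15.5. In KO at steady state the differences of the other 4 were 1.47 ± 0.91, 2.04 ± 0.28, 0.72 ± 0.14 and -0.86 ± 0.04. At 24 h in WT TRAV6D-4 had 2.17 and 2.37, and TRAV6D-5 had 1.60 and -0.33. At 48 h in WT TRAV6D-4 had 1.48 and -5.71, and TRAV6D-5 had -1.38 and 3.37. The steady-state order in size thus did not hold at these samplings. Of 28 D rows of other families with a copy, 28 had a lower mean Traj number than the copy in WT at steady state, with a median of -10.6. The rows next to TRAV6D-3 and TRAV6D-4 had -0.51 (TRAV7D-2), -2.44 (TRAV7D-3) and -0.80 (TRAV7D-4). Those next to TRAV6D-5 and TRAV6D-6 had -1.82 (TRAV9D-1), -4.64 (TRAV10D) and -1.18 (TRAV11D). Those next to TRAV6D-7 had -14.4 (TRAV5D-4) and -14.7 (TRAV13D-3). Small and large gaps were thus not particular to Trav6d. The gap of TRAV6D-3 in WT was 0.025 and 1.26 at steady state and -1.31 and -2.30 at 24 h, so its sign is not read as a trait of that segment.

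The place of a segment along the locus and its partners were read together, with the row order of the tables as the guide. The 5 segments are rows 7, 9, 13, 15 and 33 of the 79, and their copies rows 41, 43, 47, 49 and 68. Each had a mean Traj number close to its neighbours in WT at steady state: TRAV6D-3 at 24.0 stood between TRAV7D-2 at 24.9 and TRAV7D-3 at 25.6, and TRAV6D-4 at 25.5 was followed by TRAV7D-4 at 27.9. TRAV6D-5 at 27.9 stood between TRAV9D-1 at 29.0 and TRAV10D at 27.0, and TRAV6D-6 at 28.0 was followed by TRAV11D at 26.1. TRAV6D-7 at 25.9 stood between TRAV5D-4 at 26.0 and TRAV13D-3 at 24.7. Shares did not follow place in this way, with TRAV6D-6 at 1.90% next to TRAV11D at 0.0498% and TRAV6D-3 at 0.435% next to TRAV7D-2 at 1.68%.

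By correlation of log2 shares over the 12 libraries, the rows most like TRAV6D-3 were TRAV16D/DV11 (r = 0.96), TRAV12D-3 (0.95) and TRAV6D-4 (0.94). TRAV6D-4 was most like TRAV7D-2 (0.98), TRAV16D/DV11 (0.98) and TRAV14D-2 (0.97). TRAV6D-5 and TRAV6D-6 were each other's nearest row (0.99), and TRAV6D-5 was followed by TRAV7D-3 and TRAV8-1 (0.97 each). TRAV6D-6 was followed by TRAV11 (0.99) and TRAV6-5 (0.98), and TRAV6D-7 was most like TRAV4D-4, TRAV16D/DV11 and TRAV1 (0.96 each). Part of this likeness is the split between the 8 and the 4 libraries: over the 8 alone, r was 0.39 for TRAV6D-5 with TRAV8-1 and 0.42 for TRAV6D-6 with TRAV11, while TRAV6D-5 with TRAV6D-6 kept 0.99.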

How the data were processed

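Tcra repertoires of 12 libraries were analysed. The authors deposited 1 table per library of fractions of the repertoire for each Trav and Traj pair, per the file headers and the values. No source used here gives the aligner, the build or the unit counted. Depth is unknown, so no counting interval is given. All per-sample columns were used.

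Each fraction was divided by its table's own total and multiplied to percent. Rows listed in every table (79, with 3397 pairs) were tested with limma 3.58.1 in R 4.3.3 on log2(percent + 0.01), or on the mean Traj number, with 1 mean per group, 6 residual degrees of freedom and Benjamini-Hochberg adjustment over all rows or pairs at 0.05. Scripts were tested on simulated data.

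Members were every row named TRAV6D with a number. Also named were their like-numbered Trav6 copies, the 3 partners of largest mean share, member pairs past the threshold in a KO-minus-WT contrast and the 3 rows of highest correlation. Members and lists were chosen with earlier results of these data known.

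Deviations of same-numbered WT and KO libraries correlated over rows at 0.72, 0.93 and 0.93 (steady state, 24 h, 48 h) for shares and at 0.46, 0.65 and 0.56 for pairs, so the numbers pair the libraries there. This pairing comes from the data, not the labels. For the mean Traj number the values were 0.84, 0.09 and 0.02, so the numbers pair the libraries at steady state but not at 24 h or 48 h. The main fits did not pair them.

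Alternatives were the replicate block, rescaling to shared rows, centring, pseudocounts of 0.1 and 0.001, filters on low values (0.1% for rows, 0.01% for pairs, 0.5% for the mean Traj number), mean Traj rank, leaving out each library and leaving out the 4 libraries. Sequences and positions come from GENCODE M21 (GRCm38).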

Additional observations from a re-analysis of the deposited data

How the results depend on the processing

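No group had over 2 libraries, so a single library carries much of each value. KO shares were lower in 30 of 30 same-numbered comparisons, which are not independent. Leaving out 1 library sets a lone replicate of one genotype against both of the other, although shares of same-numbered libraries moved together. In these refits KO-minus-WT differences in log2 share changed sign: at 24 h they ran from -1.17 to 0.36 for TRAV6D-3, -0.96 to 0.13 for TRAV6D-4, -1.12 to 0.67 for TRAV6D-5 and -2.02 to 1.02 for TRAV6D-6. At 48 h they ran from -2.22 to 0.16 for TRAV6D-3, -1.06 to 0.63 for TRAV6D-4, -1.49 to 0.65 for TRAV6D-5, -1.83 to 0.64 for TRAV6D-6 and -0.80 to 0.10 for TRAV6D-7, and for the mean of TRAV6D-6 from -0.99 to 0.023. The combined share ran from -1.47 to 0.557 percentage points at 24 h and from -2.91 to 0.796 at 48 h. The KO-minus-WT difference in the mean Traj number of TRAV6D-5 at 24 h ran from -0.53 to 3.58. How many of the 5 segments were called for the mean Traj number depended on the library left out, as it did for all rows. Called pairs ran from 0 to 14 at steady state, 0 to 10 at 48 h and 0 to 43 in the mean, beside 0 to 92, 0 to 246 and 0 to 294 of all 3397 pairs.

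Without the 4 libraries the calls among the 5 shares went from 0 to 4 in the mean KO-minus-WT difference, 5 (WT) and 3 (KO) from 24 h to 48 h and 5 (WT) and 3 (KO) between 24 h and steady state, and calls of the mean Traj number at 24 h from 2 to 5. The mean Traj number then fell from 24 h to 48 h in KO for 5 of 5, TRAV6D-5 included, in place of 4. Called pairs became 40, 64 and 114 (366, 678 and 1248 of all pairs). For the mean Traj number the filter of 0.5% left only 3 of the 5, among 56 rows tested. All 3 were called in the KO-minus-WT contrasts except at 24 h, where 1 was. All 3 were also called from 24 h to 48 h in WT and between 24 h and steady state in each genotype. Without the filter 46.8% to 93.7% of the 79 rows were called in the KO-minus-WT contrasts, and 89.9% to 94.9% in these changes over time. A pseudocount of 0.1 called 6 pairs at steady state, 2 at 48 h and 7 in the mean (60, 35 and 98 of all pairs), a pseudocount of 0.001 and the filter on low values called 0 in the mean (2 and 1 of all pairs), and centring called 1 (7 of all pairs). With the replicate number as a block, 1 of the 5 shares (TRAV6D-7) was called between 24 h and steady state in WT and 1 in KO, beside 20 and 18 of the 79 rows. The block changed no call of the mean Traj number among the 5, and of the called pairs it ended that of TRAV6D-3 with TRAJ5. The causes were not tested, beside the fewer rows or libraries in each fit.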

Other observations

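Rows of identical annotated sequence were listed with different shares and different partners. TRAV6D-6 and TRAV6-6 had 0 differences over 344 transcript bases in the reference strain, yet in WT at steady state TRAV6D-6 took 1.90% and TRAV6-6 2.62% of the repertoire, and their mean Traj numbers were 28.8 and 27.2 against 32.7 and 32.1. How transcripts were assigned to either row, and whether the 129 copies at this locus differ, was not tested.

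TRAV6D-3 and TRAV6-3 differ by 1 base in the reference strain, and their ratio was the one that changed direction between the 8 libraries and the 4. The steady-state ratio was 4.997 and 4.55 in WT and 3.26 and 3.54 in KO. It was 4.85 and 0.314 in WT and 6.47 and 0.877 in KO at 24 h. The 48 h libraries gave 5.45 and 0.644 for WT and 4.74 and 0.365 for KO. The second value of each pair at 24 h and 48 h comes from the tables that sum to almost 2, and the cause was not tested.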
